A study of Mus musculus with 15 samples.

Results

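Interferon-stimulated genes (ISGs) were examined in the hippocampus of aged Tg2576 and wild-type (WT) mice that had received docosahexaenoic acid (DHA) or vehicle. The 38 ISGs were a list of gene symbols, and all 38 were found among the 55401 genes of the count files. Of these 38, 36 passed the filter on low counts and were tested together with 19536 genes in all. The other 2 were too low to test: Oasl1 had 0 to 10 reads per mouse and Ifi44 had 2 to 28. The 15 sequenced mice were females, 18 to 20 months old, of which 8 were WT (4 with vehicle and 4 with DHA) and 7 were Tg2576 (4 with vehicle and 3 with DHA). Tg2576 mice carry human APP with the Swedish mutation under the prion promoter, so that its expression follows this promoter and not that of App, and the labels write their genotype as Tg2576 +/+ and that of WT mice as Tg2576 -/-. Treated mice received 450 mg/kg DHA in sesame oil over 5 weeks, and the vehicle groups received the oil without DHA. Each library came from 1 mouse. The counts do not separate the human transgene from mouse App.

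Interferons are secreted when a cell senses foreign or misplaced nucleic acid. Type I interferons bind the receptor made of IFNAR1 and IFNAR2, and the kinases JAK1 and TYK2 then activate a complex that holds STAT2 and IRF9 and binds the interferon-stimulated response element (ISRE) in promoters. Interferon gamma acts through the gamma-activated site (GAS). The induced genes include sensors of viral RNA, effectors that block translation or degrade RNA, immunity-related GTPases, and chemokines. In the brain, microglia, astrocytes and endothelium can all express ISGs, and an interferon-responsive state of microglia has been described in amyloid models.

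The promoters of these genes are shown first because they hold a feature that many of the genes share and that did not enter their choice. Windows of 300 bases (250 before and 50 after the annotated start, RefSeq, GRCm38.p6) were at hand for 29 of the 38 ISGs. The ISRE core was searched on both strands as GAAA, any 2 bases and GAAA again, and the GAS as TTCNNNGAA. The ISRE letters were found in 18 of the 29 genes (62.1%), whereas 3.44% of all windows and 3.99% of all genes with a window held them. The GAS letters were found in 7 of the 29 (24.1%), compared with 8.3% of all windows and 9.55% of all genes. A match is a description of letters and not of binding. The stretches below hold the ISRE matches of the 4 ISGs that were called in a genotype comparison (Bst2, Irgm1, Trim30a and Stat2), of Isg15 with 3 overlapping matches, and of Ifit3 and Ifit3b, whose stretches are letter for letter the same. They are written 5′ to 3′ along the gene, with the ISRE matches in capitals; where 2 matches overlap, the capitals form a single run.
Bst2 (chr8:71537557-71537632, minus strand): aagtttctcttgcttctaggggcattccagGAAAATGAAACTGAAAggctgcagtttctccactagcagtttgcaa
Irgm1 (chr11:48871421-48871480, minus strand): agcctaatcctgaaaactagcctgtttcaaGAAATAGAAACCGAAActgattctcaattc
Trim30a (chr7:104465194-104465259, minus strand): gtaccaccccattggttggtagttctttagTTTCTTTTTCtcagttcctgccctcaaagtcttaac
Stat2 (chr10:128270248-128270315, plus strand): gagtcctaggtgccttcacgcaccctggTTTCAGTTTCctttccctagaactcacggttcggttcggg
Isg15 (chr4:156200845-156200926, minus strand): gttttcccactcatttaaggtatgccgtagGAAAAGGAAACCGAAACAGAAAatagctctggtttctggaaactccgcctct
Ifit3 (chr19:34583343-34583446, plus strand): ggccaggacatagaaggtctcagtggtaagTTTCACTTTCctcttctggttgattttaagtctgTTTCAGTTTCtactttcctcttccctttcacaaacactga
Ifit3b (chr19:34607739-34607842, plus strand): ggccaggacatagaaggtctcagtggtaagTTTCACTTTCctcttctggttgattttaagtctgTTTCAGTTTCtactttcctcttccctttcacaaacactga
In Bst2 and Irgm1 2 ISRE matches overlap in a single run of GAAA repeats, and in Bst2 the 1 GAS match overlaps the first of them. In Trim30a and Stat2 the match lies on the opposite strand, 36 and 222 bases before the start at its first base.

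**Figure D1:**
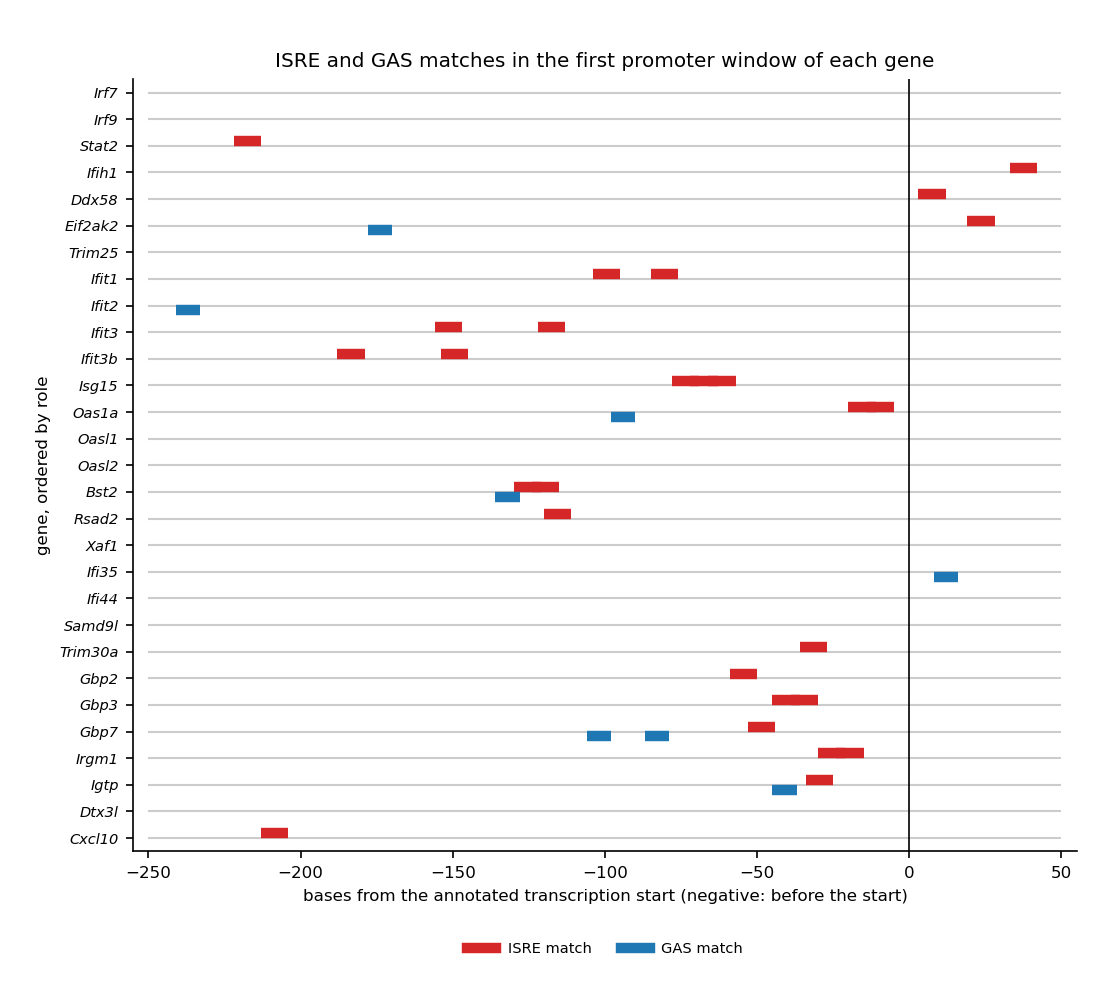
Positions of ISRE (red) and GAS (blue) matches in the first promoter window of the 29 ISGs with a window. The horizontal axis gives bases from the annotated transcription start, and each grey line is 1 window. Overlapping ISRE matches are drawn as a longer bar, as for Isg15, Irgm1, Gbp3, Oas1a and Bst2.

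Total counts per mouse ranged from 17372864 to 46596489, and the 38 ISGs took between 0.0168% and 0.0275% of the reads of a mouse. Levels are given as CPM, read counts scaled to a common library size, after TMM correction. They were set against each other between genes only after division by the length of the gene model. Per kilobase, the highest ISGs were Ifi27 (31.1 CPM per kb, mean of 15 mice), Bst2 (7.15), Stat2 (6.97), Ifit3 (3.98) and Irf9 (2.84). The lowest of the 36 tested were Zbp1 (0.108 CPM per kb), Oas2 (0.239) and Iigp1 (0.257). Thus, Ifi27 (a small membrane protein), the tethering factor Bst2 and the transcription factor Stat2 made up the top of the list. Zbp1 had 1 to 36 reads per mouse, Oas1a 2 to 29 and Cxcl10 0 to 56, so counting error weighs heavily on these 3 genes. Some levels are uncertain because of near-identical copies: 51.2% of the 50-base words of Ifit3 also occur in Ifit3b, and 57.6% of those of Oas1a occur in Oas1g. Counting did not use the strand, and 16.8% of the exon bases of Ifi35, 13.9% of Rtp4, 11.3% of Gbp7, 9.4% of Parp9 and 8.01% of Igtp overlap exons of other genes.

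App, the mouse counterpart of the human transgene, had mean levels ± SD of 1702.5 ± 86.5 CPM with vehicle and 1640.7 ± 64.3 CPM with DHA in WT mice (n = 4 each), and of 2342 ± 221 CPM with vehicle (n = 4) and 2542 ± 251 CPM with DHA (n = 3) in Tg2576 mice. All 15 libraries named a single flow cell and lane, so no sequencing batch could be compared. A few mice stood apart in the ISGs. WT DHA replicate 2 had the highest level of its group in 27 of the 36 tested ISGs (75%), whereas it was highest in 28.5% of all genes tested. Its median deviation from the mean of the other mice of its group was 0.69 on the log2 scale. Tg2576 DHA replicate 1 was the lowest of its 3 mice in 27 of 36 (75%, beside 40.5% of all genes), and WT vehicle replicate 2 the lowest in 23 of 36 (63.9%, beside 23.8%). Their microglial markers lay within the range of the other mice of their groups, with a summed level of 259.6 CPM in WT DHA replicate 2 (236 to 273 in its group) of 370.2 CPM in Tg2576 DHA replicate 1 (305 to 408) and of 292 CPM in WT vehicle replicate 2 (275 to 308). Other markers did stand apart in these mice. The summed meningeal markers were highest of their group in WT DHA replicate 2 (64.7 CPM, the others 28.3 to 44.8). They were lowest of their groups in WT vehicle replicate 2 (20.9 CPM, the others 26.5 to 47.7) and Tg2576 DHA replicate 1 (33.4 CPM, the others 71.1 and 84.8). The summed erythrocyte markers were highest of their groups in WT vehicle replicate 2 (520 CPM, the others 90.0 to 177) and Tg2576 DHA replicate 1 (723 CPM, the others 160 and 295), and the choroid plexus markers were lowest in the former (84.2 CPM) and highest in the latter (5098). The part of these cells in the levels of the ISGs was not tested. For the ISGs, several results that rest on these mice are given with and without them. Results of the pathway and marker lists are given with all mice only.

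To find out whether ISGs differ with the transgene, Tg2576 and WT mice were compared under vehicle and under DHA. A gene was called at an unadjusted p under 0.01 in the quasi-likelihood test of edgeR, the threshold of the study. Under vehicle, 2 of 36 ISGs were called, both higher in Tg2576 mice (Stat2 and Irgm1), where 3.09% of all genes tested were called and 1.16% were called higher. The log2 fold change was above 0 for 27 of 36 ISGs (50% of all genes), with a median of 0.26 compared with 0.0003 over all genes. Under DHA, 2 of 36 were called, again both higher in Tg2576 mice (Trim30a and Bst2), beside 1.75% of all genes called and 1.06% called higher. Here 29 of 36 were above 0 (49.3% of all genes), with a median of 0.27 against -0.004. Averaged over both treatments, 3 of 36 were called higher (Irgm1, Trim30a and Bst2) and 0 lower, beside 3.85% and 1.94% of all genes called and called higher, and 30 of 36 were above 0 (48.9% of all genes) with a median of 0.23. An unadjusted p under 0.05 was reached by 6 ISGs under vehicle (10.7% of all genes, 4.62% higher), 6 under DHA (6.86%, 3.61% higher) and 8 in the average (11.6%, 5.70% higher), all of them higher in Tg2576 mice. After adjustment (Benjamini-Hochberg over all genes tested) 0 ISGs had a p under 0.05 in the edgeR test, beside 0.0154%, 0.00512% and 0.205% of all genes, and the smallest adjusted values were 0.291, 0.548 and 0.123. With DESeq2, 1 ISG passed this threshold, Irgm1 in the average (adjusted p = 0.0131). With DESeq2 and limma-voom the counts of called ISGs stayed within 1.5 times these. Under vehicle, under DHA and in the average, DESeq2 called 4.22%, 2.48% and 5.11% of all genes and limma-voom 3.13%, 1.89% and 4.04%. The share of all genes that passed the adjusted threshold with DESeq2 was not counted.

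**Figure D2:**
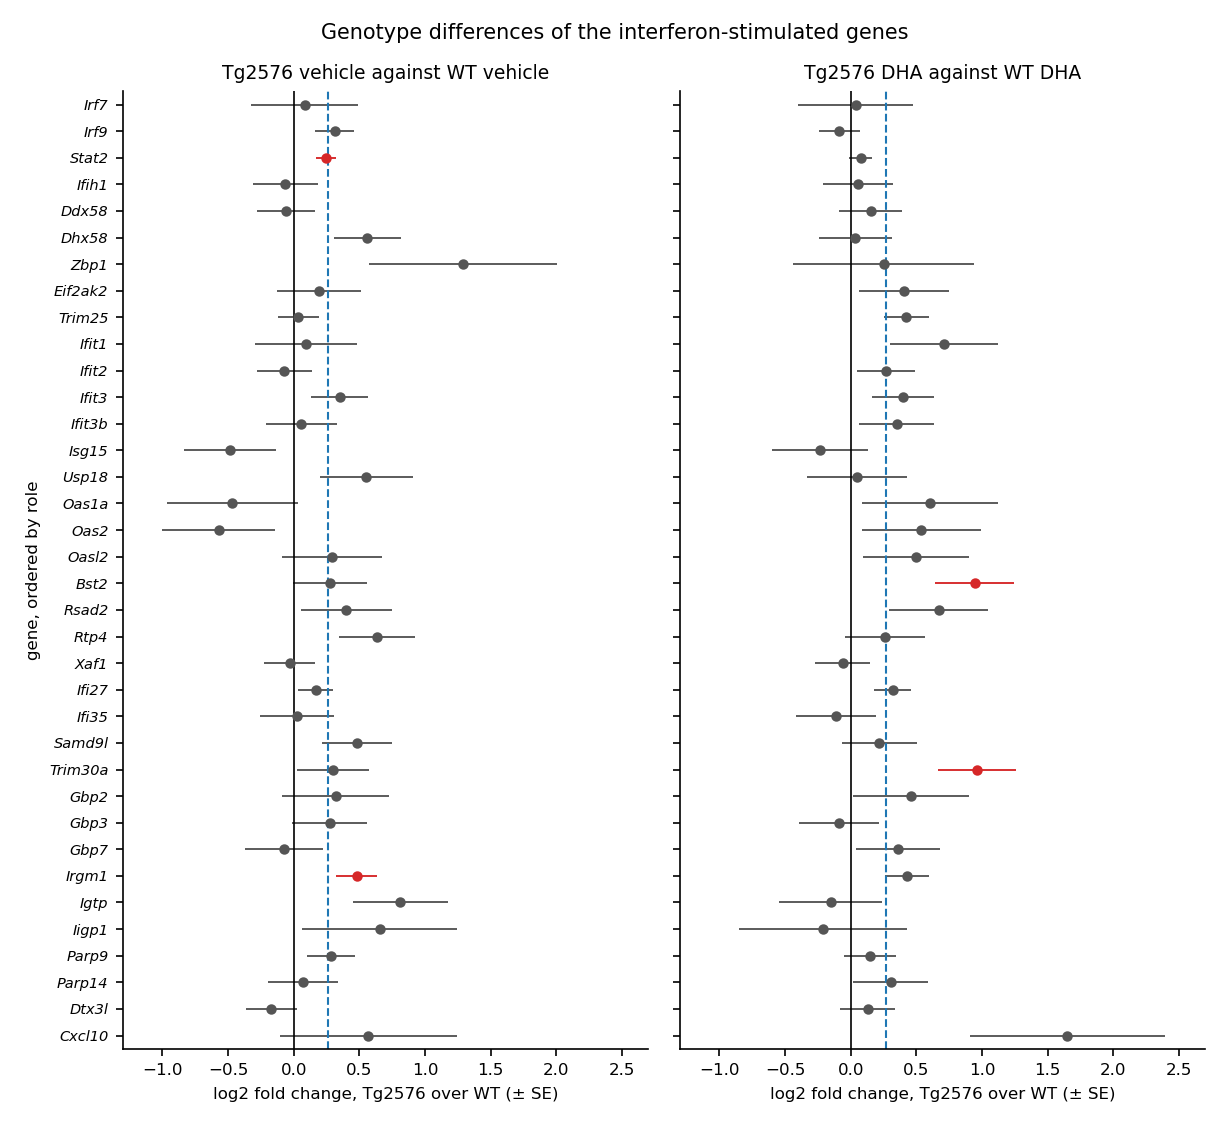
Log2 fold change of Tg2576 over WT for the 36 tested ISGs under vehicle (left) and under DHA (right), with bars of ± 1 SE. Red points have an unadjusted p under 0.01, the dashed blue line is the median of the 36 genes (0.26 and 0.27) and the black line is 0. Of the 36 points, 27 lie to the right of 0 under vehicle and 29 under DHA.

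Of the transcription factors that carry the interferon signal, Stat2 (ENSMUSG00000040033.16, chromosome 10, 128270559 to 128292849) was at 39.0, 37.1, 36.1 and 36.1 CPM in WT vehicle mice and at 39.1, 42.4, 46.6 and 47.7 CPM in Tg2576 vehicle mice. The groups did not overlap, but the highest WT and the lowest Tg2576 mouse were nearly level. Such a separation upwards was seen for 3 of 36 ISGs (Stat2, Irgm1 and Rtp4) beside 2.18% of all genes tested, and Oas2 was separated downwards (2.98% of all genes). The fold change of Stat2 was 1.19 (log2 0.25, SE 0.079, p = 0.00642, adjusted p = 0.291 in the edgeR test, and 0.0286 in the exact permutation test, the smallest p that 4 against 4 mice allow). Under DHA, Stat2 was at 42.1, 43.0, 41.0 and 38.7 CPM in WT and at 43.4, 42.6 and 44.1 CPM in Tg2576 mice, with a log2 fold change of 0.07 (95% interval of -0.10 to 0.25). The p of the vehicle comparison lay between 0.0101 and 0.0240 without WT vehicle replicate 2, 3 or 4 or Tg2576 vehicle replicate 3 or 4. Without a filter on low counts it was 0.0246, and with only the 2 groups fitted 0.0152.

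Irf9, the partner of STAT2, was at 13.4, 12.2, 13.6 and 15.3 CPM in WT vehicle and at 14.4, 18.3, 18.1 and 16.9 CPM in Tg2576 vehicle mice. With DHA, it was at 17.0, 16.9, 11.7 and 17.3 CPM in WT and at 11.5, 16.1 and 17.0 CPM in Tg2576 mice. The groups overlapped under both treatments, and 1 mouse of each DHA group lay well below the others. The log2 fold change of Tg2576 over WT was 0.31 (SE 0.147, adjusted p = 0.461 in the edgeR test, exact permutation p = 0.0571) under vehicle and -0.09 (SE 0.158) under DHA. Irf7, the interferon-induced amplifier of the response, ranged from 1.06 CPM in WT DHA replicate 1 to 5.55 CPM in WT DHA replicate 2, so that both the lowest and the highest of all 15 mice belonged to a single group.

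Among the 6 nucleic acid sensors and their partners, 4 lay above 0 under vehicle and 6 of 6 under DHA, and 0 were called in either. Dhx58, which modulates RIG-I-like receptors, was at 1.51, 0.919, 1.52 and 1.75 CPM in WT vehicle and at 1.82, 1.71, 2.45 and 2.48 CPM in Tg2576 vehicle mice. It was at 1.23, 1.95, 2.02 and 1.78 CPM in WT DHA and at 1.48, 2.10 and 1.78 CPM in Tg2576 DHA mice. The log2 fold change of genotype was 0.56 (SE 0.254, adjusted p = 0.441 in the edgeR test, exact permutation p = 0.0571) under vehicle, where 1 WT mouse (1.75) lay above the lowest Tg2576 mouse, and 0.04 (SE 0.274) under DHA.

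Trim25, the ubiquitin ligase that activates RIG-I, was at 8.83, 8.03, 9.53 and 8.24 CPM in WT vehicle and at 9.48, 9.76, 10.01 and 6.26 CPM in Tg2576 vehicle mice. With DHA, it was at 7.75, 9.61, 7.24 and 6.52 CPM in WT and at 9.61, 10.6 and 11.2 CPM in Tg2576 mice. Under DHA the groups met at 9.61 CPM, where WT DHA replicate 2 lay just above the lowest Tg2576 mouse, and the log2 fold change was 0.42 (SE 0.170, unadjusted p = 0.0232 and adjusted p = 0.667 in the edgeR test, exact permutation p = 0.0857). Without WT DHA replicate 2 the log2 fold change was 0.55 with a p of 0.00654, and without Tg2576 vehicle replicate 4 it was 0.43 with a p of 0.00730. Ifih1 (MDA5), Ddx58 (RIG-I) and Eif2ak2 (PKR, the kinase that halts translation on double-stranded RNA) overlapped between the genotypes under both treatments.

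Zbp1, a sensor of Z-form nucleic acid, was at 0.129, 0.097, 0.405 and 0.030 CPM in WT vehicle and at 0.568, 0.259, 0.430 and 0.406 CPM in Tg2576 vehicle mice. In WT DHA mice it was at 0.176, 1.17, 0.207 and 0.192 CPM, and in Tg2576 DHA mice at 0.648, 0.414 and 0.581 CPM. Of the 4 WT DHA mice, 3 lay below every Tg2576 mouse of either treatment and replicate 2 lay above all of them. The log2 fold change under vehicle was 1.29 with a wide error (SE 0.716, adjusted p = 0.540 in the edgeR test, exact permutation p = 0.0571). Averaged over treatments, it was 0.77 (SE 0.495, adjusted p = 0.599 in the edgeR test), and without WT DHA replicate 2 it was 1.39 (SE 0.448, adjusted p = 0.244) and was called.

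The 4 genes of the IFIT family, whose proteins bind foreign RNA and block its translation, showed 3 log2 fold changes above 0 under vehicle and 4 of 4 under DHA, between 0.27 and 0.71, with 0 called. Ifit3b was at 2.91, 2.27, 3.88 and 3.58 CPM in WT vehicle and at 2.27, 3.98, 3.01 and 3.86 CPM in Tg2576 vehicle mice. It was at 4.09, 5.03, 2.43 and 2.59 CPM in WT DHA and at 3.31, 4.49 and 5.81 CPM in Tg2576 DHA mice. The 4 groups overlapped for Ifit3b, as they did for Ifit1, Ifit2 and Ifit3. Averaged over treatments Ifit3 had a log2 fold change of 0.37 (SE 0.160, adjusted p = 0.375 in the edgeR test, permutation p = 0.0398).

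Isg15, the ubiquitin-like modifier, was at 1.49, 0.870, 1.93 and 1.75 CPM in WT vehicle and at 0.568, 1.29, 1.25 and 1.18 CPM in Tg2576 vehicle mice. In WT DHA mice it was at 1.59, 3.38, 1.35 and 1.73 CPM, and in Tg2576 DHA mice at 1.19, 2.04 and 1.94 CPM. With all mice, Isg15 lay below 0 in both genotype comparisons (log2 -0.48, SE 0.350, under vehicle and -0.23, SE 0.367, under DHA), though without WT DHA replicate 2, which had the highest Isg15 of all mice, the value under DHA was 0.15. Its protease Usp18 lay above 0 in both (0.55 and 0.05). Neither gene was called in any comparison.

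The 2′-5′ oligoadenylate synthetases make the second messenger that activates RNase L. Oas2 was at 1.31, 1.16, 1.15 and 1.203 CPM in WT vehicle and at 0.568, 0.905, 0.688 and 1.06 CPM in Tg2576 vehicle mice, so that all 4 Tg2576 mice lay below all 4 WT mice. The levels of Oas2 rest on few reads, 8 to 68 per mouse, so counting error bears on their order. With DHA, Oas2 was at 0.440, 2.08, 0.414 and 0.816 CPM in WT and at 0.972, 2.01 and 1.200 CPM in Tg2576 mice, where all 3 Tg2576 mice lay above 3 of the 4 WT mice. The log2 fold change of genotype was -0.57 (SE 0.431, adjusted p = 0.673 in the edgeR test, exact permutation p = 0.0286) under vehicle and 0.54 (SE 0.453, adjusted p = 0.849, exact permutation p = 0.257) under DHA. Oas1a was at 0.517, 0.242, 0.608 and 0.782 CPM in WT vehicle and at 0.114, 0.582, 0.258 and 0.569 CPM in Tg2576 vehicle mice. Its levels were 0.528, 0.617, 0.207 and 0.768 CPM in WT DHA and 1.04, 0.591 and 0.813 CPM in Tg2576 DHA mice. The order of the genotypes thus turned between treatments for Oas1a as well (-0.47, SE 0.501, and 0.60, SE 0.519), with overlapping groups under both. Oasl2, the third tested member of this family, lay above 0 under both treatments (0.29 and 0.50).

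Among the 8 other antiviral effectors, Trim30a and Bst2 were called under DHA. Trim30a (ENSMUSG00000030921.17, chromosome 7, 104409025 to 104465193), a ubiquitin ligase that dampens NF-kB signalling, was at 1.32, 1.75, 1.19 and 1.25 CPM in WT DHA mice and at 2.27, 2.98 and 2.87 CPM in Tg2576 DHA mice. The groups did not overlap, and the highest WT mouse was replicate 2. With vehicle it was at 1.79, 1.02, 2.03 and 2.89 CPM in WT and at 2.21, 2.88, 2.58 and 1.87 CPM in Tg2576 mice, and the groups overlapped. The fold change was 1.95 under DHA (log2 0.96, SE 0.296, p = 0.00457, adjusted p = 0.548 in the edgeR test, and 0.0286 in the exact permutation test, the smallest p that 3 against 4 mice allow). It was 1.23 under vehicle (log2 0.30, SE 0.272). Averaged over treatments, Trim30a had a log2 fold change of 0.63 (SE 0.201, p = 0.00598, adjusted p = 0.225 in the edgeR test, exact permutation p = 0.00886). Under DHA the p lay between 0.0114 and 0.0190 without WT DHA replicate 1, 3 or 4 or Tg2576 DHA replicate 2 or 3. Averaged over treatments it lay between 0.0104 and 0.0157 without WT vehicle replicate 1, WT DHA replicate 1, 3 or 4, Tg2576 vehicle replicate 2 or 3 or Tg2576 DHA replicate 2 or 3. It stayed below 0.01 in the other 7 of these 15 fits. With the level of choroid plexus markers as a covariate, an alternative chosen after the data were seen, Trim30a was not called under DHA (log2 0.89, with an unadjusted p of 0.0237) or in the average (0.59, 0.0204).

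Bst2 (ENSMUSG00000046718.8, chromosome 8, 71534255 to 71537456), which tethers budding virions to the cell, was at 2.95, 5.26, 8.17 and 4.32 CPM in WT DHA and at 8.85, 9.31 and 11.7 CPM in Tg2576 DHA mice. With vehicle it was at 5.75, 2.80, 7.53 and 4.81 CPM in WT and at 5.11, 6.56, 7.48 and 6.22 CPM in Tg2576 mice. All 3 Tg2576 DHA mice lay above the other 12 mice, whereas the 2 vehicle groups overlapped. The fold change of genotype was 1.92 under DHA (log2 0.94, SE 0.302, p = 0.00607, adjusted p = 0.560 in the edgeR test, exact permutation p = 0.0571) and 1.21 under vehicle (log2 0.27, SE 0.282). Averaged over treatments, the log2 fold change was 0.61 (SE 0.207, p = 0.00905, adjusted p = 0.253 in the edgeR test, exact permutation p = 0.0269). Markers of the choroid plexus moved with Bst2. The summed level of 4 of 4 such markers (Ttr, Kl, Folr1 and Aqp1) was 3045 to 5098 CPM in Tg2576 DHA mice, 58.2 to 5750.2 in WT DHA, 84.2 to 3678 in WT vehicle and 137 to 3112 in Tg2576 vehicle mice. Within each WT group, the mouse with the lowest sum (WT vehicle replicate 2 with 84.2 CPM and WT DHA replicate 1 with 58.2) had the lowest Bst2 and the mouse with the highest sum (3678 and 5750.2 CPM) the highest Bst2. This order was not seen in Tg2576 mice, where Tg2576 DHA replicates 1, 2 and 3 had sums of 5098, 3246 and 3045 CPM in the reverse order of their Bst2, and Tg2576 vehicle replicate 3, with the highest Bst2 of its group, had a sum of 434 CPM. With the log2 of this sum as a covariate, Bst2 rose by 0.15 (SE 0.039, adjusted p = 0.0918 in the edgeR test) per doubling of the sum, and the genotype difference under DHA was 0.52, with an unadjusted p of 0.0566. Leaving out single mice raised the p of the comparison under DHA to between 0.0115 and 0.0293 (WT DHA replicate 1, 2 or 4, Tg2576 DHA replicate 2 or 3). The averaged call was lost without any of 12 mice (p up to 0.0269), all but the third WT mouse of either treatment and Tg2576 vehicle replicate 1.

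Rtp4, a receptor transporter, was at 1.44, 1.40, 1.25 and 1.62 CPM in WT vehicle and at 2.38, 2.42, 2.23 and 1.87 CPM in Tg2576 vehicle mice. In WT DHA mice it was at 1.67, 3.31, 0.931 and 2.02 CPM, and in Tg2576 DHA mice at 2.45, 2.601 and 2.17 CPM. All 4 Tg2576 vehicle mice lay above all WT vehicle mice (log2 0.64, SE 0.289, adjusted p = 0.439 in the edgeR test, exact permutation p = 0.0286). Under DHA, the lowest and the highest of the 7 mice were both WT. Ifi27 was at 39.2, 33.4, 49.2 and 43.4 CPM in WT vehicle and at 38.4, 50.3, 54.4 and 42.2 CPM in Tg2576 vehicle mice. It was at 37.2, 39.2, 48.6 and 47.3 CPM in WT DHA and at 53.6, 49.3 and 58.4 CPM in Tg2576 DHA mice. The DHA groups of Ifi27 did not overlap (log2 0.32, SE 0.141, adjusted p = 0.702 in the edgeR test, exact permutation p = 0.0857), nor did those of Trim30a, Bst2 and Irgm1, which makes 4 of 36 ISGs beside 3.91% of all genes separated upwards. Of the other antiviral effectors, Rsad2 (viperin), Xaf1, Ifi35 and Samd9l overlapped between the genotypes under both treatments.

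**Figure D3:**
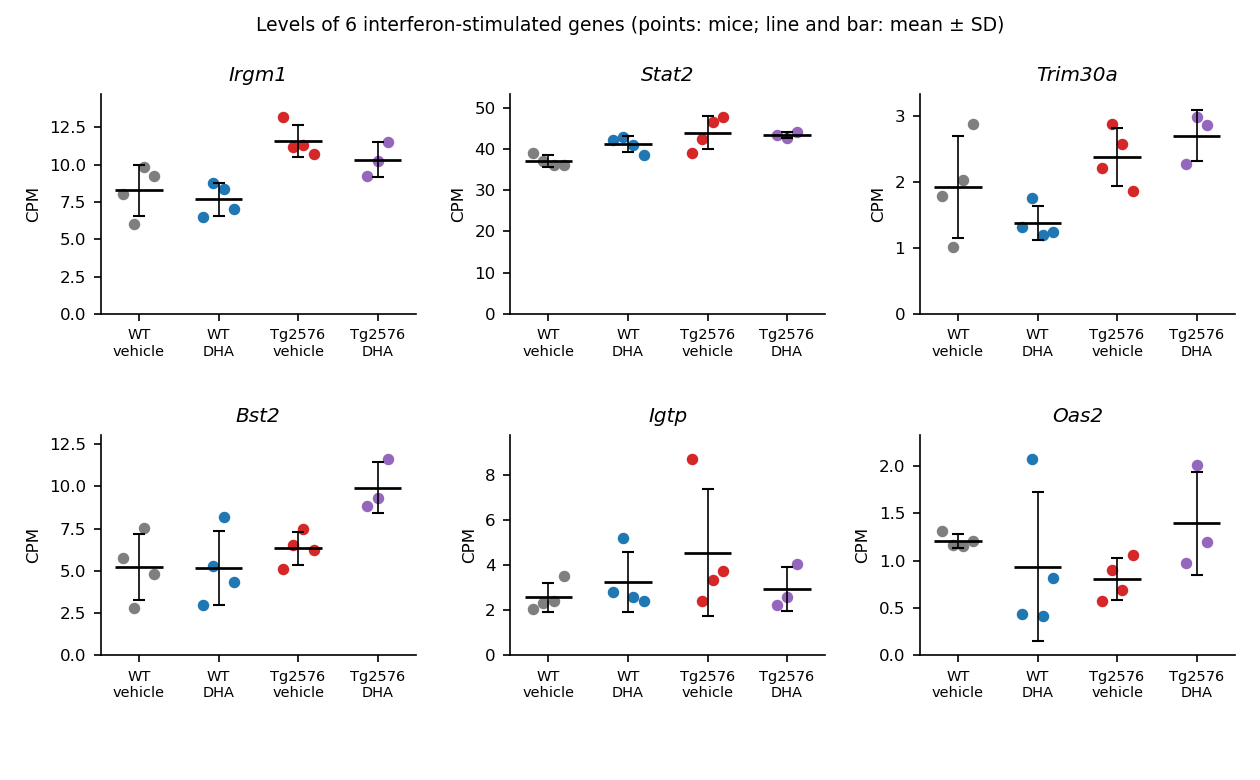
Levels (CPM, axis from 0) of the 4 ISGs called in a genotype comparison and of Igtp and Oas2 in the 4 groups. Points are mice, and the line and bar give the mean and SD (n = 4, 4, 4 and 3). Tg2576 mice lie above WT mice under both treatments for Irgm1, and for Trim30a and Bst2 the groups are apart under DHA.

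The 6 GTPases, which act on vacuoles that hold pathogens, contained the ISG with the lowest averaged p, Irgm1. This gene (ENSMUSG00000046879.7, chromosome 11, 48861968 to 48871683) was at 8.01, 5.996, 9.87 and 9.24 CPM in WT vehicle and at 13.2, 11.1, 11.3 and 10.7 CPM in Tg2576 vehicle mice. With DHA it was at 6.47, 8.77, 8.38 and 7.05 CPM in WT and at 9.21, 10.3 and 11.5 CPM in Tg2576 mice. Tg2576 mice lay above WT mice without overlap under either treatment, with a fold change of 1.40 (log2 0.48, SE 0.157, p = 0.00687, adjusted p = 0.299 in the edgeR test, exact permutation p = 0.0286) under vehicle and 1.35 (log2 0.43, SE 0.169, adjusted p = 0.652, exact permutation p = 0.0571) under DHA. Averaged over treatments, the log2 fold change was 0.45 (SE 0.115, p = 0.00100, adjusted p = 0.123 in the edgeR test, exact permutation p = 0.00109), and the edgeR p stayed below 0.01 in all 15 fits with 1 mouse left out (0.000549 to 0.00429) and in each other alternative that gave this average (at most 0.00553, with the choroid plexus covariate described above). The p under vehicle lay between 0.0106 and 0.0244 when WT vehicle replicate 1 or 2 or Tg2576 vehicle replicate 1, 2 or 3 was left out, and it was 0.0129 with only the 2 groups fitted.

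Igtp, another immunity-related GTPase, was at 2.05, 2.32, 2.40 and 3.52 CPM in WT vehicle and at 8.74, 2.42, 3.35 and 3.74 CPM in Tg2576 vehicle mice. In WT DHA mice it was at 2.82, 5.23, 2.59 and 2.40 CPM, and in Tg2576 DHA mice at 2.23, 2.57 and 4.07 CPM. Under vehicle the groups overlapped and the log2 fold change was 0.81 (SE 0.363, adjusted p = 0.432 in the edgeR test, exact permutation p = 0.143), or 0.30 without Tg2576 vehicle replicate 1. The same mouse was the highest of its group in 5 of the 6 GTPases, with a median deviation of 0.94 on the log2 scale (Gbp2 6.81 CPM, Gbp7 3.97 and Iigp1 4.43), while its Isg15 (0.568 CPM) and Oas1a (0.114) were the lowest of all 15 mice. In WT DHA replicate 2 the GTPases (0.98), the IFIT family (0.74) and the synthetases (1.78) were all above the mean of the other mice of its group. This mouse was highest in 6 of 6, 4 of 4 and 2 of 3 genes. Thus, high GTPases came with high IFIT and OAS genes in one mouse and without them in another. The microglial markers of Tg2576 vehicle replicate 1 were the lowest of its group (249.4 CPM, 308 to 372 in the other 3 mice), as were its plaque-associated markers (97.5 CPM, 155 to 178 in the other 3).

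**Figure D4:**
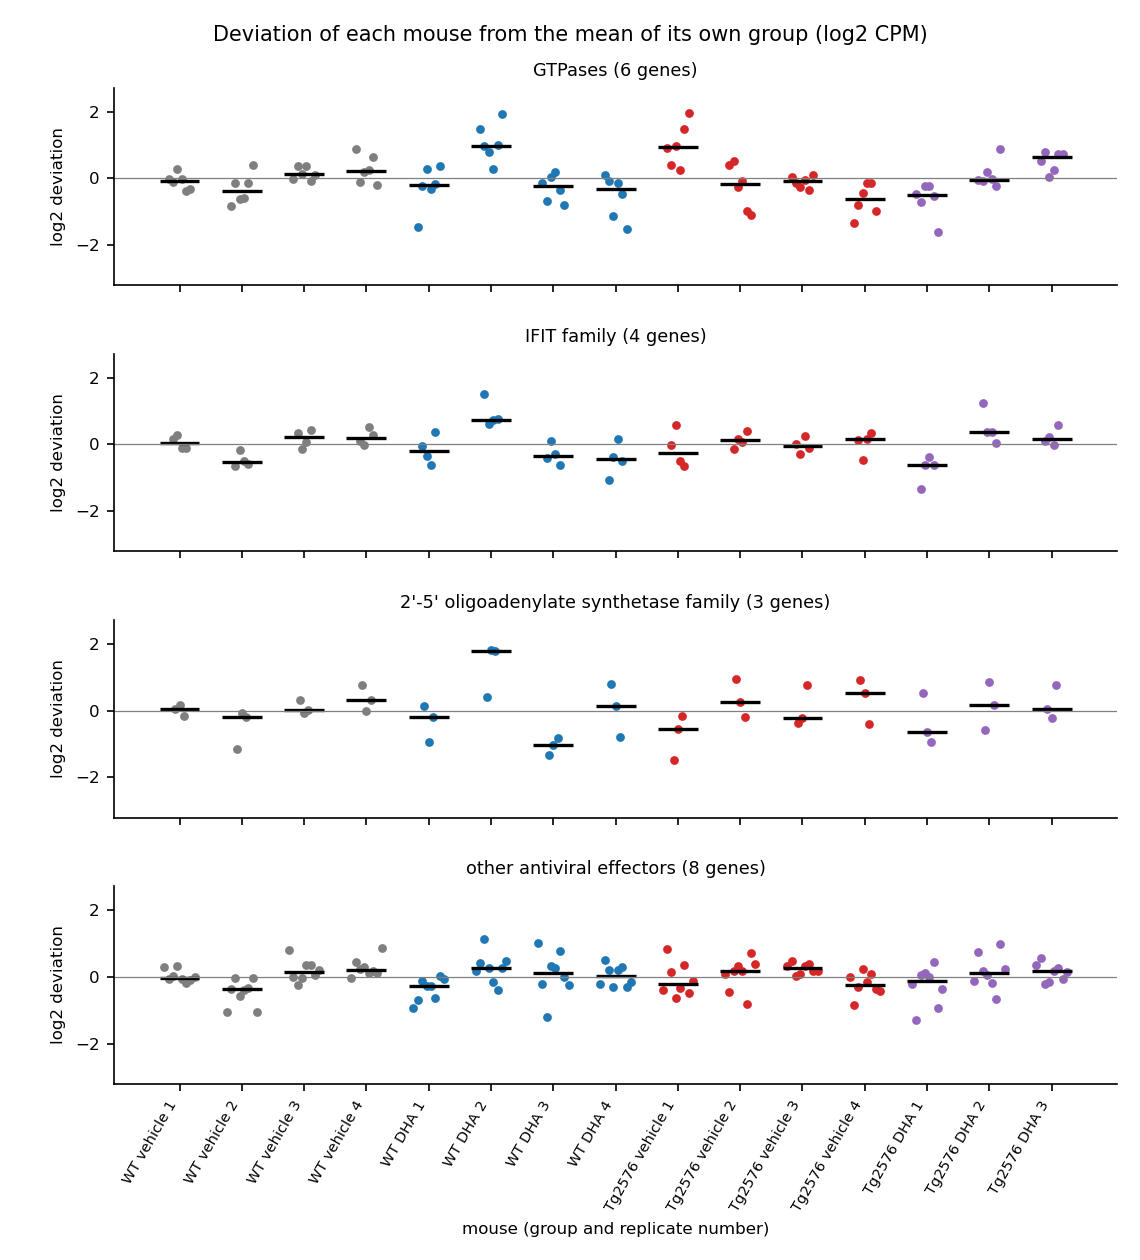
Deviation of each mouse from the mean of the other mice of its own group (log2 CPM) for the members of 4 roles. Each point is 1 gene in 1 mouse, the black line is the median of the genes, and colours mark the groups. WT DHA replicate 2 lies high in the GTPases, the IFIT family and the synthetases, and Tg2576 vehicle replicate 1 is high in the GTPases (0.94) but not in the IFIT family (-0.26) or the synthetases (-0.56).

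Parp9, Dtx3l and Parp14, which modify proteins with ADP-ribose and ubiquitin downstream of interferon, had log2 fold changes of -0.17 to 0.29 under vehicle, while those under DHA were 0.13 to 0.30, with 0 called. The chemokine Cxcl10, which attracts T cells, had the largest fold change under DHA among the ISGs but also few reads. It was at 0.000, 0.844, 0.103 and 0.576 CPM in WT DHA and at 0.432, 1.18 and 2.17 CPM in Tg2576 DHA mice, and the groups overlapped (log2 1.65, SE 0.741, adjusted p = 0.705 in the edgeR test, exact permutation p = 0.171). With vehicle it was at 0.732, 0.290, 0.676 and 0.662 CPM in WT and at 0.284, 1.23, 0.859 and 1.14 CPM in Tg2576 mice.

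The mice that stood apart had been singled out by these same ISGs. The direction in which leaving them out moved most ISGs was therefore fixed in advance, in each comparison that held them. Calls that appear without them are not separate support. WT DHA replicate 2 bore on the genotype comparison under DHA more than any other mouse. Without it, 34 of 36 ISGs lay above 0 (50.8% of all genes), the median was 0.53, and 6 were called higher (1.74% of all genes called in either direction). These were Oasl2 (log2 1.21), Ifit1 (1.29), Trim30a (1.11), Oas2 (1.32), Trim25 (0.55) and Cxcl10 (2.46), whereas Bst2 was not called (0.95, with an unadjusted p of 0.0122). The adjusted values of the 6 genes lay between 0.477 and 0.565 in this edgeR fit. Averaged over treatments 6 were called without this mouse (Irgm1, Oasl2, Rtp4, Trim30a, Ifit3 and Zbp1; 3.49% of all genes), with a median of 0.35 and 33 of 36 above 0 (49.2% of all genes). Isg15, Xaf1, Gbp3, Igtp and Iigp1 turned from below to above 0 under DHA when it was left out. Without Tg2576 DHA replicate 1, the low mouse of the other group, the median under DHA was 0.39 and 2 were called (2.30% of all genes). Without WT vehicle replicate 2, the median under vehicle was 0.14 and 0 were called (1.6% of all genes).

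To see whether DHA changed ISGs, DHA and vehicle mice were compared within each genotype. In WT mice 0 of 36 ISGs were called (1.38% of all genes), 0 had an unadjusted p under 0.05 (5.92% of all genes), and the smallest adjusted p in the edgeR test was 0.857. For 0 of 36 did the groups not overlap, beside 5.02% of all genes. Of the 36, 19 lay above 0 (47.3% of all genes) with a median of 0.07 and a range from -0.59 to 1.45. The lowest p in the edgeR test belonged to Zbp1 (log2 1.45, SE 0.704, exact permutation p = 0.286), followed by Stat2 (0.15, SE 0.079, p = 0.0571), Trim30a (-0.49, SE 0.279, p = 0.314), Rtp4 (0.49, SE 0.289, p = 0.457) and Irf9 (0.21, SE 0.147, p = 0.314). Without WT DHA replicate 2 the median was -0.17 and 11 of 36 lay above 0 (47.0% of all genes). Oas2 was then called lower (-1.11, adjusted p = 0.735 in the edgeR test), beside 1.34% of all genes called. Without WT vehicle replicate 3, Zbp1 was called higher (log2 2.33, with an unadjusted p of 0.00760), beside 1.65% of all genes called. With all mice, the median also lay below 0 with limma-voom. The difference of Zbp1 was 0.21 without WT DHA replicate 2, and that of Rtp4 0.11.

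In Tg2576 mice 0 of 36 were called (0.353% of all genes) and the smallest adjusted p in the edgeR test was 0.999. Of the 36, 23 lay above 0 (49.1% of all genes), with a median of 0.14 and a range from -0.61 to 1.04. The median was 0.30 without Tg2576 DHA replicate 1, 0.03 and 0.06 without replicates 2 and 3 of that group, and 0.21 and 0.05 without Tg2576 vehicle replicates 3 and 4. Bst2 was the 1 ISG with an unadjusted p under 0.05 (log2 0.64, SE 0.300, p = 0.0461, exact permutation p = 0.0286), beside 3.16% of all genes. It was followed by Oas1a (1.04, SE 0.527, exact permutation p = 0.114), Isg15 (0.67, SE 0.374, p = 0.171), Oas2 (0.78, SE 0.458, p = 0.0857) and Ifit3b (0.46, SE 0.289, p = 0.200). The levels of DHA and vehicle mice did not overlap for Bst2 and Oas1a, both higher with DHA, where 1.69% of all genes tested were separated upwards. With the choroid plexus markers as a covariate the difference of Bst2 was 0.26, with an unadjusted p of 0.297, and with only the 2 groups fitted it was 0.64, with an unadjusted p of 0.00607. The 95% intervals still allowed changes of a fair size, as from -0.52 to 0.19 for Irgm1 on the log2 scale.

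The effect of DHA was then compared between the genotypes. For the interaction, 0 of 36 ISGs were called (0.829% of all genes), 0 had an unadjusted p under 0.05 (5.12% of all genes), 21 lay above 0 (50.6% of all genes), and the smallest adjusted p was 0.845 in the edgeR test. A positive value means a larger effect of DHA in Tg2576 mice. The lowest p belonged to Irf9 (log2 -0.40, SE 0.216), Igtp (-0.97, SE 0.535), Oas2 (1.11, SE 0.625), Trim25 (0.39, SE 0.233) and Trim30a (0.67, SE 0.403), each with an adjusted p of 0.845. The 3 synthetases and the 4 IFIT genes all had positive values (medians of 1.07 and 0.32), whereas 4 of the 6 GTPases and the 3 transcription factors had negative ones, of which Irgm1 and Irf7 turned positive without WT DHA replicate 2. Without WT DHA replicate 2, Oas2 was called (1.90, adjusted p = 0.708 in the edgeR test), beside 1.10% of all genes called. The genotype differences of the 4 ISGs called in one treatment were not shown to differ between treatments, with an interaction p of 0.162 for Stat2, 0.827 for Irgm1, 0.116 for Trim30a and 0.124 for Bst2 in the edgeR test.

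Other genes of the interferon pathway were taken from a list of 88, of which 72 were tested. Of 10 interferon ligands, Ifnb1 and 6 others had 0 reads in all 15 mice, which allows up to 3 reads or 0.0644 to 0.173 CPM per mouse, and the other 3 had at most 4 reads in a mouse. The 6 receptor chains were all tested and 0 were called in the genotype comparisons (3.09% of all genes under vehicle, 1.75% under DHA and 3.85% in the average). Averaged over treatments, the log2 fold change was -0.11 (SE 0.054) for Ifnar1, 0.00 (SE 0.079) for Ifnar2, 0.14 (SE 0.077) for Ifngr1 and -0.08 (SE 0.069) for Ifngr2. For the low Ifnlr1 and for Il10rb it was -0.24 (SE 0.445) and 0.19 (SE 0.118).

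Averaged over treatments, 7 of the 72 pathway genes were called and all were higher in Tg2576 mice, beside 3.85% of all genes called and 1.94% called higher. Of the 72, 57 lay above 0 (48.9% of all genes) with a median of 0.15. Socs3, a feedback inhibitor of JAK kinases that also answers to other cytokines, rose by 0.90 on the log2 scale (SE 0.175, adjusted p = 0.0486 in the edgeR test). Its mean level ± SD was 2.42 ± 0.37 CPM in WT and 5.08 ± 0.68 CPM in Tg2576 mice with vehicle (n = 4 each), and 2.73 ± 0.73 (n = 4) and 4.52 ± 1.55 CPM (n = 3) with DHA. Irf8, a transcription factor of microglia and other myeloid cells, rose by 0.61 (SE 0.134, adjusted p = 0.0739) and Irf5, an activator of inflammatory cytokines, by 0.51 (SE 0.150, adjusted p = 0.179) in the edgeR test. Tlr7, an endosomal sensor of single-stranded RNA, rose by 0.76 (SE 0.240), Lgals3bp, a secreted glycoprotein, by 0.61 (SE 0.167), Ifitm3, which hinders viral entry, by 0.59 (SE 0.176), and Psmb8, a subunit of the immunoproteasome, by 0.47 (SE 0.159), with adjusted p between 0.162 and 0.251. Socs3 was the 1 pathway gene called under vehicle (log2 1.07, adjusted p = 0.158 in the edgeR test), beside 3.09% of all genes called and 1.16% called higher. Irf5 (0.70), Irf8 (0.79) and Lgals3bp (0.84) were called under DHA, beside 1.75% and 1.06%. With DHA against vehicle 0 of 72 were called in either genotype (1.38% of all genes in WT and 0.353% in Tg2576 mice).

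Markers of other cells moved with the genotype. In bulk tissue, more cells of a type and more RNA per cell cannot be told apart. Averaged over treatments, 6 of 7 plaque-associated microglial markers, 4 of 4 reactive astrocyte markers and 3 of 7 microglial markers were called higher in Tg2576 mice. Of the 4 markers of monocytes and neutrophils, 3 could be tested and 2 were called higher, and 4 of 7 neuronal markers were called lower. Over all genes tested, 3.85% were called and 1.94% were called higher. The summed plaque-associated markers ranged from 92.6 to 106 CPM in WT vehicle, 79.5 to 104 in WT DHA, 97.5 to 178 in Tg2576 vehicle and 112 to 167 in Tg2576 DHA mice. The summed astrocyte markers ranged from 655 to 798, 580 to 865, 1035 to 1683 and 1136 to 1918 CPM in the same order. Of the 5 endothelial, 4 choroid plexus, 4 meningeal and 4 erythrocyte markers 0 were called. The 5 T cell markers summed to at most 2.004 CPM in a mouse, 0 of the 2 that could be tested were called, and Cd3e, Cd3d, Ccr2, S100a8 and S100a9 had 0 reads in at least 1 mouse. The part of these cells in the ISG differences was not tested.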

How the data were processed

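Hippocampal RNA of 15 mice was sequenced. Per the labels and the study's methods, the authors aligned reads with STAR 2.6.1c to GRCm38 and deposited raw counts per gene and mouse (featureCounts 1.6.0, exons, GENCODE vM25; the command named no strand option). The labels and the methods name different library kits. Gene symbols matched 55141 of 55401 identifiers. Genes were filtered with filterByExpr of edgeR 4.0.16 (R 4.3.3; minimum count 10), scaled by TMM (factors 0.961 to 1.03) and tested with the quasi-likelihood test of edgeR with robust dispersions and 1 coefficient per group. The biological coefficient of variation was 20.1%. P-values were adjusted by Benjamini-Hochberg over all 19536 genes tested. Log2 CPM used a prior count of 2. Exact permutation tests were two-sided, on the difference of mean log2 CPM. Intervals of fold changes are 95% intervals from the SE and the total degrees of freedom of the edgeR test (residual plus prior). The limit given by a count of 0 (3 reads) covers counting error only. No pair of libraries was identical. The fit was tested on simulated data.

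Genes were named with full values where the unadjusted p was under 0.01 in a comparison, with the 5 lowest p of each comparison. The ISGs, the gene and marker lists and this rule were chosen with earlier results of these data known. Alternatives were DESeq2 1.42.0, limma-voom (limma 3.58.1), other scaling, filters and dispersions, only the groups compared, a replicate block, and leaving out each mouse. A fit with the summed choroid plexus markers as a covariate was added after the data were seen. Promoter windows were RefSeq's (GRCm38.p6). Some genes of the pathway and marker lists are not reported here.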

Additional observations from a re-analysis of the deposited data

Results flagged for a closer look

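In groups of 4 mice, a mouse was singled out where its gap to the nearest other mouse exceeded 0.829 of the range of its group (Dixon's 95% critical value). This held for 12 of 114 groups of 1 ISG in 1 condition, and chance flags about 1 in 20. The Tg2576 DHA group, with 3 mice, was not examined in this way.

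WT DHA replicate 2 stood above its group in Zbp1 (1.17 CPM, the others 0.176 to 0.207), Oasl2 (8.21 CPM, the others 2.07 to 2.91) and Igtp (5.23 CPM, the others 2.40 to 2.82). WT DHA replicate 3 stood below it in Irf9 (11.7 CPM, the others 16.9 to 17.3).

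Among Tg2576 vehicle mice, replicate 1 was low in Isg15 (0.568 CPM, the others 1.18 to 1.29) and high in Gbp7 (3.97 CPM, the others 1.87 to 2.07). Replicate 3 was high in Oasl2 (6.27 CPM, the others 3.41 to 3.86). Replicate 4 was low in Trim25 (6.26 CPM, the others 9.48 to 10.01) and in Parp14 (2.44 CPM, the others 3.91 to 4.04).

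Among WT vehicle mice, replicate 2 was low in Cxcl10 (0.290 CPM, the others 0.662 to 0.732), replicate 3 high in Gbp3 (4.02 CPM, the others 3.09 to 3.14) and replicate 4 high in Dtx3l (8.03 CPM, the others 5.61 to 5.996).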

How the results depend on the processing

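The ISGs with the 5 lowest p of each comparison (30 pairs of a gene and a comparison) kept their direction in the alternatives run. Other ISGs did not, as Isg15 and Iigp1 for genotype under DHA (0.15 and 0.56 without WT DHA replicate 2). Under vehicle, the count of called ISGs (2) was 1 without a filter on low counts (2.02% of all genes), 0 with only the 2 groups fitted (2.71%) and 1 with the replicate block (3.38%). With only the 2 groups fitted, 1 ISG (Bst2) was called for DHA in Tg2576 mice (0.156% of all genes). With the choroid plexus covariate, chosen after seeing the data, 0 were called under DHA and 1 (Irgm1) averaged over treatments. The share of all genes called was also lower with it, at 0.860% under DHA (1.75% without it) and 2.71% in the average (3.85% without it). The cause was not tested. When single mice were left out, the counts ranged from 0 to 2 (genotype under vehicle), 0 to 6 (genotype under DHA), 0 to 1 (DHA in WT), 0 to 0 (DHA in Tg2576), 0 to 1 (interaction) and 1 to 6 (averaged). The medians ranged from 0.14 to 0.31, 0.15 to 0.53, -0.17 to 0.11, 0.03 to 0.30, 0.00 to 0.39 and 0.17 to 0.35 in the same order. The replicate numbers did not pair the mice (21 same-numbered pairs of groups, correlation of deviations -0.244 to 0.213, 4 over 0.1). With the block, Stat2 under vehicle (p of 0.0134) and Trim30a in the average (0.0112) were not called, and the median for DHA in WT mice lay below 0, as it did with limma-voom and without WT DHA replicate 2 (3 of 24 alternatives). ISGs with fewer than 60 reads per mouse (Zbp1, Oas1a and Cxcl10) are limited by depth.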
